A study of Homo sapiens with 6 samples.

Results

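The transcriptional end of the Hippo pathway was described in HGC-27 gastric cancer cells through 8 genes, YAP1, WWTR1 (which encodes TAZ), TEAD1, TEAD2, TEAD3, TEAD4, VGLL3 and VGLL4, chosen by gene name from the 58735 genes of the deposited table. HGC-27 is an established human line from a lymph node metastasis of an undifferentiated gastric carcinoma. Bulk RNA-seq was compared between 3 libraries of cells carrying pSIH-H1-Puro-shNC, labelled WT in genotype (shNC), and 3 libraries of cells carrying pSIH-H1-Puro-shACAT2, labelled ACAT2 knockdown (shACAT2). In both groups the vector was given for 24 h and puromycin was then applied for 7 days, which leaves resistant cell populations and not single clones. The methods describe 2 hairpins against ACAT2, and the labels do not say which of them these libraries carry.

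YAP1 and TAZ are coactivators that cannot bind DNA themselves. When the kinases LATS1 and LATS2 phosphorylate them they are held in the cytoplasm or degraded, and when they are not phosphorylated they enter the nucleus and bind the TEAD transcription factors, which carry the DNA-binding TEA domain. VGLL proteins bind the same surface of TEAD, and VGLL4 competes there with YAP1, so the activity of the pathway depends on which partners are present as well as on where they are. The study followed YAP1, TAZ and TEAD1 as proteins by immunoblotting and reported all of them lower in gastric cancer cells with ACAT2 knockdown. From the RNA-seq of HGC-27 cells it also reported, by pathway enrichment, that Hippo signalling was affected more than other pathways. For YAP1 it proposes that SETD7 protects the protein from degradation by the proteasome. The question put to the RNA was whether the messenger levels of the coactivators, the use of the TEAD paralogues and the level of VGLL4 differ between shACAT2 and shNC cells. Protein, phosphorylation and nuclear entry were not measured in these files.

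The 4 TEAD genes are close relatives, and the sequences printed here show how far short reads can tell them apart. Coding sequences of 1 representative transcript per gene (GENCODE release 29, GRCh38) were 70.4% to 74.7% identical between TEAD genes, with TEAD3 and TEAD4 the closest pair. TEAD3 and TEAD4 also had the longest shared run between these transcripts, 56 bases. The gap-free 60 bases within single coding exons where the other TEAD genes were most like TEAD1 are given as read on the coding strand. They lie in the region of the TEA domain, and capitals mark each base that differs from TEAD1.
TEAD1, chr11:12764320-12764379, plus strand: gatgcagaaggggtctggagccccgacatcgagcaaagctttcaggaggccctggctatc
TEAD2, chr19:49359899-49359958, minus strand: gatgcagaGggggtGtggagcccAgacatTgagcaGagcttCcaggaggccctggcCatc
TEAD3, chr6:35486516-35486575, minus strand: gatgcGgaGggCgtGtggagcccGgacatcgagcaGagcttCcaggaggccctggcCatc
TEAD4, chr12:2994878-2994937, plus strand: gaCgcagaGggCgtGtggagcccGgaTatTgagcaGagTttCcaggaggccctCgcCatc
Even in this stretch TEAD2 differed from TEAD1 at 7 bases, TEAD3 at 8 and TEAD4 at 12. Over all annotated transcripts of each gene, 0 of the 50-base words of TEAD1 and 0 of those of TEAD2 occurred in another gene in the sense direction, and TEAD3 and TEAD4 shared 7 words with each other, which is 0.227% of the words of TEAD3 and 0.280% of those of TEAD4. In the antisense direction, 227 words of TEAD2 (7.00%) occurred in CD37, and TEAD1, TEAD3 and TEAD4 shared 0 words.

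A further difference between the paralogues lies at the start of translation. The first 30 coding bases are shown with the annotated start codon in capitals.
TEAD1, chr11:12764233-12764262, plus strand: ATTgagcccagcagctggagcggcagtgag
TEAD2, chr19:49360046-49360075, minus strand: ATGggggaaccccgggctggggccgccctg
TEAD3, chr6:35486633-35486662, minus strand: ATAgcgtccaacagctggaacgccagcagc
TEAD4, chr12:2994767-2994796, plus strand: TTGgagggcacggccggcaccattacctcc
TEAD2 alone among the 4 TEAD genes was annotated with ATG in these transcripts, and TEAD1, TEAD3 and TEAD4 were annotated with ATT, ATA and TTG. Messenger levels alone do not say how often such codons are used.

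For the coactivators, the sites through which LATS kinases act are the link between protein and pathway that RNA does not read. The motif histidine, any residue, arginine, any 2 residues, serine was found at 5 places in the YAP1 coding sequence and at 4 places in that of WWTR1. The best known site of each is given here with the 18 bases that encode the motif in capitals.
YAP1, serine codon 127, chr11:102114180-102114209, plus strand: ccacagCATGTTCGAGCTCATTCCtctcca
WWTR1, serine codon 89, chr3:149657034-149657063, minus strand: gcccagCATGTCCGCTCGCACTCGtcgccc
The coding sequences of YAP1 and WWTR1 were 70.8% identical, with a longest shared run of 21 bases between the transcripts.

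Library quality bears on all values that follow. Each library held between 14086416 and 16067486 fragments on genes, recovered as whole fragments from the FPKM values (fragments scaled to gene length and to the mapped fragments of the library). ACAT2, the targeted thiolase, was at 14.2, 11.7 and 12.7 FPKM in shNC-1, shNC-2 and shNC-3, and at 6.19, 5.46 and 6.05 FPKM in shACAT2-1, shACAT2-2 and shACAT2-3. It fell by 1.01 on the log2(FPKM + 1) scale (SE 0.10, limma adjusted p = 0.00594, and 0.0512 without shNC-3). SETD7, the methyltransferase that the study places between ACAT2 and YAP1, fell by 1.17 (SE 0.11, limma adjusted p = 0.00516), from a mean of 8.17 ± 0.418 to 3.09 ± 0.493 FPKM (SD, n = 3). Of the pairs within a group, shNC-2 with shNC-3 was far closer (chi-square per gene 1.71) than the others (10.8 to 39.3), and shACAT2-3 held 7477 genes seen in no other library, against 416 to 657 in the others. All 8 markers of gastric mucosa and all 5 epithelial markers averaged below 1 FPKM in both groups, although the tissue label is stomach. Of the mesenchymal markers, VIM and FN1 averaged above 1 FPKM in both groups and CDH2 averaged below it. The summed epithelial markers were at 0.505 to 0.830 FPKM in shNC and at 1.44 to 2.22 FPKM in shACAT2, and the 3 mesenchymal markers VIM, CDH2 and FN1 summed to 248 to 294 FPKM and to 343 to 463 FPKM. The 4 fibroblast markers COL1A1, COL1A2, DCN and LUM were all above 1 FPKM, with sums of 102 to 106 FPKM in shNC and 178 to 200 FPKM in shACAT2, and the part of these marker shifts in the results on the Hippo genes was not tested. In bulk RNA, fewer cells expressing a gene and less RNA per cell cannot be told apart.

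Among the 8 genes, 7 were expressed and none passed the test between shACAT2 and shNC. TEAD4 and YAP1 were the most abundant, TEAD1, TEAD2 and TEAD3 lay in the middle, and VGLL4 and WWTR1 were lowest. Mean levels in shNC were 29.2 ± 2.53 FPKM for TEAD4, 22.9 ± 1.05 for YAP1, 13.1 ± 2.49 for TEAD1, 12.3 ± 0.920 for TEAD2, 8.93 ± 0.769 for TEAD3, 5.32 ± 0.418 for VGLL4 and 4.48 ± 0.379 for WWTR1 (SD, n = 3). TEAD1 and TEAD2 were the neighbours in this order whose shNC libraries overlapped. In shACAT2 the libraries of TEAD1 overlapped with those of its neighbours YAP1 and TEAD2, and those of TEAD2 with those of TEAD3. VGLL4 and WWTR1 changed places, since VGLL4 was above WWTR1 in 3 of 3 shNC libraries and below it in 3 of 3 shACAT2 libraries, although in shNC-3 the levels were close (4.84 and 4.78 FPKM).

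**Figure D1:**
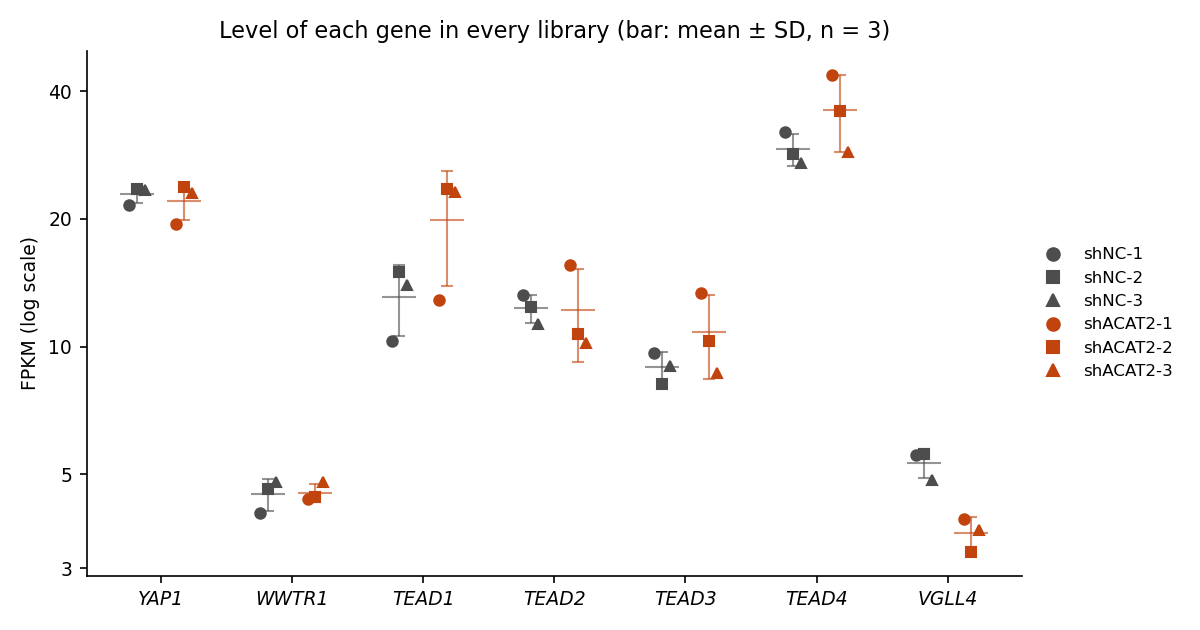
The plot shows FPKM on a log axis for the 7 expressed genes, with 1 point per library (grey, shNC, and orange, shACAT2, with shapes for the library number) and bars for mean ± SD (n = 3). VGLL4 is the gene whose groups are separate, at 4.84 to 5.57 FPKM in shNC and 3.28 to 3.93 FPKM in shACAT2, and TEAD1 to TEAD4 spread more widely in shACAT2 than in shNC.

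By limma, 0 of the 7 tested members had an adjusted p under 0.05, where 5.10% of the 13832 genes tested did. At an unadjusted p under 0.05 the count was 1 of 7 (VGLL4), against 23.5% of all genes. In 1 of 7 (VGLL4) the 3 shACAT2 and 3 shNC libraries did not overlap, against 30.7% of all genes. No label pairs the libraries. The replicate numbers were taken to pair them, though in the values only the libraries numbered 1 stood out as a pair. Under a block on that number 2 of 7 passed (TEAD1 and VGLL4), against 12.5% of all genes. With limma-voom on the recovered fragments 1 of 7 passed (VGLL4), against 8.42% of all genes. Fitted values were higher in shACAT2 for 4 members and lower for 3, and their median log2 fold change was 0.01, beside 0.016 for all genes tested.

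**Figure D2:**
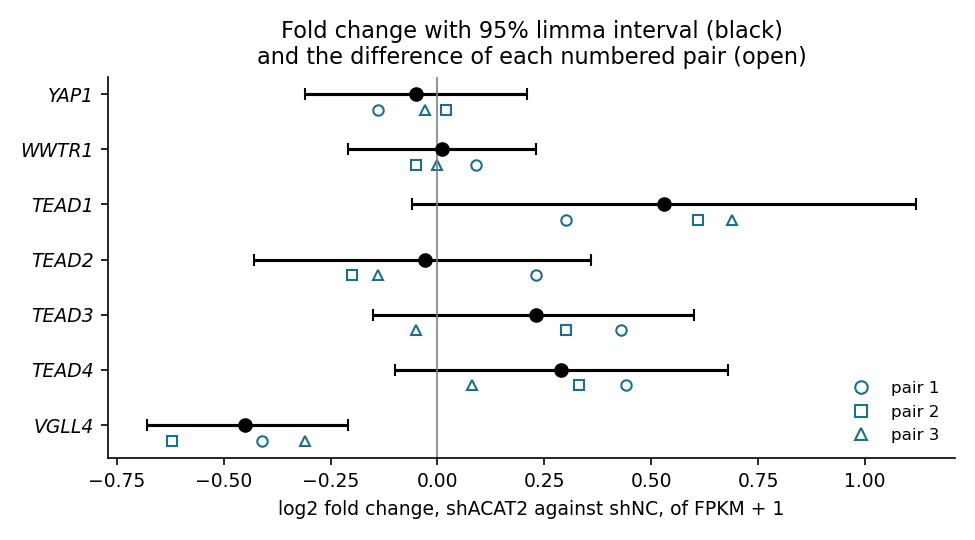
The plot gives the log2 fold change of FPKM + 1, shACAT2 against shNC, as a black point with its 95% limma interval, and the difference of each numbered pair of libraries as an open symbol. The interval of VGLL4 lies below 0, from -0.68 to -0.21, and those of the other 6 genes cross 0, the widest being that of TEAD1, from -0.06 to 1.12.

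YAP1 and WWTR1 messengers were at nearly the same level with and without ACAT2 knockdown. YAP1 (ENSG00000137693, chr11:102110461-102233423, plus strand) was at 21.6, 23.5 and 23.4 FPKM in shNC-1, shNC-2 and shNC-3, and at 19.5, 23.8 and 23.0 FPKM in shACAT2-1, shACAT2-2 and shACAT2-3. The groups overlapped, the lowest library being shACAT2-1 and the highest shACAT2-2. The log2 fold change was -0.05 (SE 0.11, limma adjusted p = 0.823), and its 95% interval corresponds to between 0.805-fold and 1.16-fold on the FPKM + 1 scale. WWTR1 (ENSG00000018408, chr3:149517235-149736714, minus strand) was at 4.05, 4.61 and 4.78 FPKM in the shNC libraries and at 4.37, 4.41 and 4.78 FPKM in the shACAT2 libraries, in the same order. Here too the groups overlapped, and the 2 libraries numbered 3 were level. The log2 fold change was 0.01 (SE 0.09, limma adjusted p = 0.958), with an interval from 0.866-fold to 1.17-fold. The sign of both values depended on single libraries or on the scaling, so no direction is given.

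Taken per length, YAP1 messenger outnumbered WWTR1 messenger in every library. YAP1 made up 84.2%, 83.6% and 83.1% of the summed coactivator FPKM in shNC and 81.7%, 84.4% and 82.8% in shACAT2. The groups overlapped and the means, 83.6% ± 0.578 and 83.0% ± 1.34 (SD, n = 3), differed by -0.671 percentage points (2-sided exact permutation p = 0.500). The sum of YAP1 and WWTR1 was 27.3 ± 1.42 FPKM in shNC and 26.6 ± 2.36 FPKM in shACAT2 (exact permutation p = 0.600). With 3 libraries against 3, the smallest p that this permutation test can give is 0.1.

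The TEAD genes encode the DNA-binding partners, and TEAD1 had the largest fitted difference of the 4 as well as the largest SE. TEAD1 (ENSG00000187079, chr11:12674591-12944483, plus strand) was at 10.3, 15 and 14.0 FPKM in shNC-1, shNC-2 and shNC-3, and at 12.9, 23.5 and 23.2 FPKM in shACAT2-1, shACAT2-2 and shACAT2-3. The groups overlapped because shACAT2-1 lay below shNC-2 and shNC-3, while shACAT2-2 and shACAT2-3 lay above every shNC library. The log2 fold change was 0.53 (SE 0.25, 95% interval -0.06 to 1.12, limma adjusted p = 0.253), and means were 13.1 ± 2.49 and 19.9 ± 6.04 FPKM (SD, n = 3). The library numbered 1 was the lowest of its group for TEAD1 in both groups, and shACAT2 was above shNC in 3 of 3 numbered pairs, by 0.30, 0.61 and 0.69 on the log2 scale. With the replicate number as a block, a pairing that no label gives, the SE was 0.10 and the limma adjusted p was 0.0413. Without shACAT2-1 the log2 fold change was 0.80 (limma adjusted p = 0.0419). Across leaving out each library in turn, the adjusted p ranged from 0.0419 to 0.492.

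TEAD2, TEAD3 and TEAD4 shared another pattern, in which shACAT2-1 was the highest of all 6 libraries. TEAD4 (ENSG00000197905, chr12:2959330-3040673, plus strand) was at 32.0, 28.4 and 27.1 FPKM in shNC-1, shNC-2 and shNC-3, and at 43.8, 36.0 and 28.8 FPKM in shACAT2-1, shACAT2-2 and shACAT2-3. TEAD3 (ENSG00000007866, chr6:35473597-35497076, minus strand) was at 9.67, 8.14 and 8.99 FPKM in shNC and at 13.4, 10.3 and 8.64 FPKM in shACAT2. TEAD2 (ENSG00000074219, chr19:49340595-49362457, minus strand) was at 13.2, 12.4 and 11.3 FPKM in shNC and at 15.6, 10.7 and 10.2 FPKM in shACAT2. The groups overlapped in all 3 genes, through shACAT2-3 in TEAD4 and TEAD3 and through shACAT2-1 in TEAD2. Log2 fold changes were 0.29 for TEAD4 (SE 0.16, limma adjusted p = 0.343), 0.23 for TEAD3 (SE 0.16, limma adjusted p = 0.436) and -0.03 for TEAD2 (SE 0.17, limma adjusted p = 0.921). The 95% intervals reached from -0.10 to 0.68, from -0.15 to 0.60 and from -0.43 to 0.36.

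Gene length moved with this split between the paralogues. TEAD2, TEAD3 and TEAD4 had deposited lengths of 2980, 3046 and 2272 bases and TEAD1 one of 10279 bases. Over the 2376 tested genes of 2000 to 3500 bases, the median deviation from each gene's own mean in shACAT2-1 was 0.242 on the log2 scale, against 0.017 in shACAT2-2 and -0.085 in shACAT2-3. Over the 2402 genes of at least 8000 bases it was -0.138 in shACAT2-1, against 0.027 and 0.029. In shACAT2-1 the deviation of TEAD4 was 0.43, that of TEAD3 was 0.43, that of TEAD2 was 0.34 and that of TEAD1 was -0.27. The part of gene length in the values of the TEAD genes, and in their sum and shares given below, was not tested.

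The summed messenger of the 4 TEAD genes was higher in each shACAT2 library than in any shNC library. It was 65.1, 64.0 and 61.4 FPKM in shNC-1, shNC-2 and shNC-3, and 85.8, 80.5 and 70.9 FPKM in shACAT2-1, shACAT2-2 and shACAT2-3. The means were 63.5 ± 1.90 and 79.0 ± 7.56 FPKM (SD, n = 3), a difference of 15.5 FPKM or 24.4%. The 2-sided exact permutation test gave p = 0.1, the smallest it allows here, and 0.225 after Benjamini-Hochberg adjustment over the 9 shares, sums and ratios tested. The paralogue that carried the difference was not the same in each library, since TEAD4 was highest in shACAT2-1 and TEAD1 was high in shACAT2-2 and shACAT2-3.

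TEAD4 messenger was the most abundant TEAD messenger in all 6 libraries. Its share of summed TEAD FPKM was 49.1%, 44.3% and 44.1% in shNC and 51.1%, 44.7% and 40.7% in shACAT2, and the groups overlapped (exact permutation p = 1.00). The share of TEAD1 was 15.8%, 23.5% and 22.8% in shNC and 15%, 29.2% and 32.7% in shACAT2, where shACAT2-1 was the lowest library and shACAT2-2 and shACAT2-3 were the highest. Its means of 20.7% ± 4.25 and 25.7% ± 9.36 (SD, n = 3) did not separate (exact permutation p = 0.500). The share of TEAD2 was 20.2%, 19.4% and 18.5% in shNC and 18.2%, 13.3% and 14.4% in shACAT2, so that the groups did not overlap. The TEAD2 share differed by -4.05 percentage points, with the smallest possible exact permutation p of 0.1 and 0.225 after adjustment. With fragments not divided by gene length it differed by -3.48 percentage points (exact permutation p = 0.300). TEAD2 itself averaged 12.3 FPKM in shNC and 12.2 FPKM in shACAT2, while the sum that divides it was higher in shACAT2. The share of TEAD3 was 14.1% ± 1.17 in shNC and 13.5% ± 1.84 in shACAT2, and its groups overlapped (SD, n = 3, exact permutation p = 0.900).

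**Figure D3:**
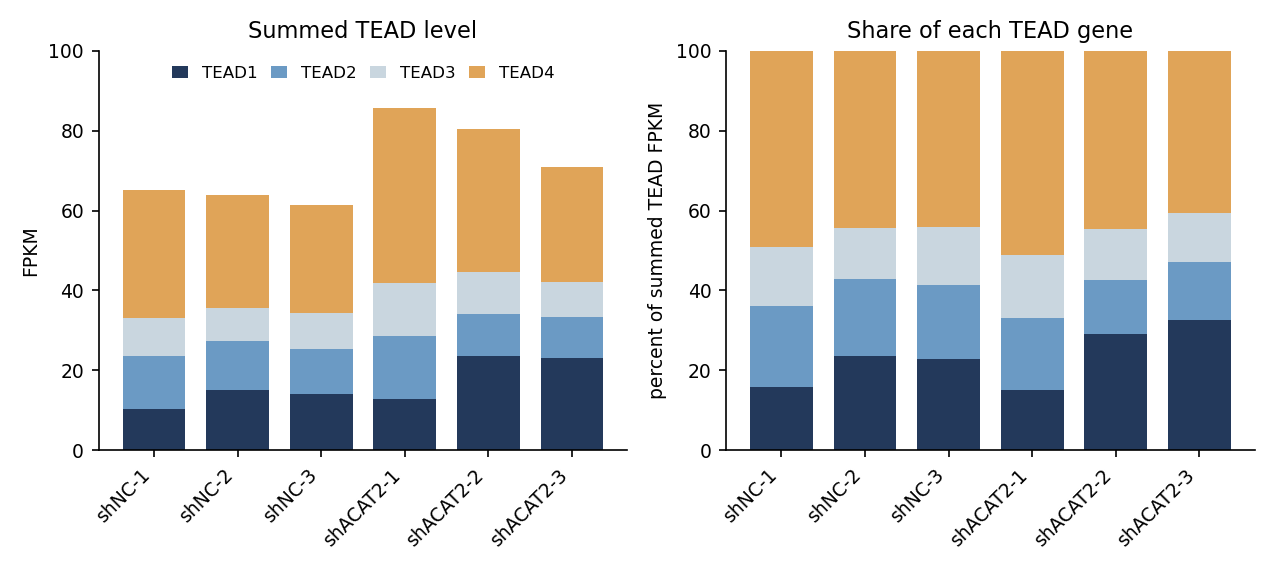
Stacked bars give, for each library, the FPKM of TEAD1 to TEAD4 (left) and their percent of the summed TEAD FPKM (right). Bar heights on the left run from 61.4 to 65.1 FPKM in shNC and from 70.9 to 85.8 FPKM in shACAT2, and the TEAD1 segment on the right is smallest in the 2 libraries numbered 1.

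VGLL4, the vestigial-like protein that competes with YAP1 for TEAD, was the member nearest to the threshold. VGLL4 (ENSG00000144560, chr3:11556070-11771350, minus strand) was at 5.56, 5.57 and 4.84 FPKM in shNC-1, shNC-2 and shNC-3, and at 3.93, 3.28 and 3.70 FPKM in shACAT2-1, shACAT2-2 and shACAT2-3. Each shACAT2 library lay below each shNC library. The log2 fold change was -0.45 (SE 0.10, 95% interval -0.68 to -0.21, limma adjusted p = 0.0515), and the ratio of the mean FPKM was 0.684. In the 3 numbered pairs the difference was -0.41, -0.62 and -0.31 on the log2 scale. With the replicate number as a block the limma adjusted p was 0.0424, and with limma-voom the log2 fold change was -0.60 (adjusted p = 0.0220). Leaving out each library in turn gave log2 fold changes of -0.50 to -0.39 and limma adjusted p of 0.0430 (without shACAT2-1) to 0.220. The call thus depended on the fit, and as the groups did not overlap, no library left out could change the direction.

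Fragments of VGLL4 numbered 395 to 653 per library. Of its annotated exon bases, 1596 (22.1%) overlapped exons of ATG7, an autophagy gene on the opposite strand. ATG7 was listed at 2.66, 1.86 and 2.49 FPKM in shNC and at 2.03, 1.69 and 1.83 FPKM in shACAT2. It was thus lower in shACAT2 in most libraries, as VGLL4 was, but its groups overlapped. Its part in the VGLL4 values was not tested. The sources do not say whether strand was used in counting. Without strand, reads of VGLL4 and ATG7 in that stretch cannot be told apart.

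The other vestigial-like genes were barely detected. VGLL3 (ENSG00000206538, chr3:86876388-86991119, minus strand) had 1 fragment in shNC-3, 1 in shACAT2-3 and 0 in the other 4 libraries, and it was not tested. A count of 0 allows up to 3 fragments, which for VGLL3 is at most 0.0157 FPKM in any library. VGLL1 had 0 fragments in all 6 libraries. VGLL2 had 1 fragment in shNC-2 and 4 in shACAT2-3, the library with many genes seen nowhere else. VGLL4 was the vestigial-like gene that passed the filter on low values.

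Set against its TEAD partners, VGLL4 messenger separated the groups. This was fixed in advance, as VGLL4 was lower and summed TEAD higher in each shACAT2 library than in any shNC library. The ratio restates those results. The log2 ratio of VGLL4 to summed TEAD FPKM was -3.55, -3.52 and -3.67 in shNC-1, shNC-2 and shNC-3, and -4.45, -4.62 and -4.26 in shACAT2-1, shACAT2-2 and shACAT2-3. All shACAT2 libraries were below all shNC libraries, with means of -3.58 ± 0.08 and -4.44 ± 0.18 (SD, n = 3), which correspond to ratios of 0.0836 and 0.0461. The difference of -0.86 had an exact permutation p of 0.1, the smallest the design allows (0.225 after adjustment). The log2 ratio of the summed coactivators to summed TEAD FPKM was -1.34, -1.19 and -1.12 in shNC and -1.84, -1.51 and -1.35 in shACAT2. These groups too did not overlap, but the lowest shNC library (shNC-1) and the highest shACAT2 library (shACAT2-3) were close. The difference was -0.35 (exact permutation p = 0.1, 0.225 after adjustment), and it was -0.22 without shACAT2-1. The summed coactivators themselves overlapped between the groups, at 27.3 ± 1.42 FPKM in shNC and 26.6 ± 2.36 FPKM in shACAT2 (SD, n = 3). Both ratios and the TEAD2 share contain the TEAD sum, so they are not separate results. YAP1, WWTR1 and VGLL4 have deposited lengths of 6296, 8413 and 7236 bases, longer than those of TEAD2, TEAD3 and TEAD4. The part of gene length in both ratios was not tested.

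**Figure D4:**
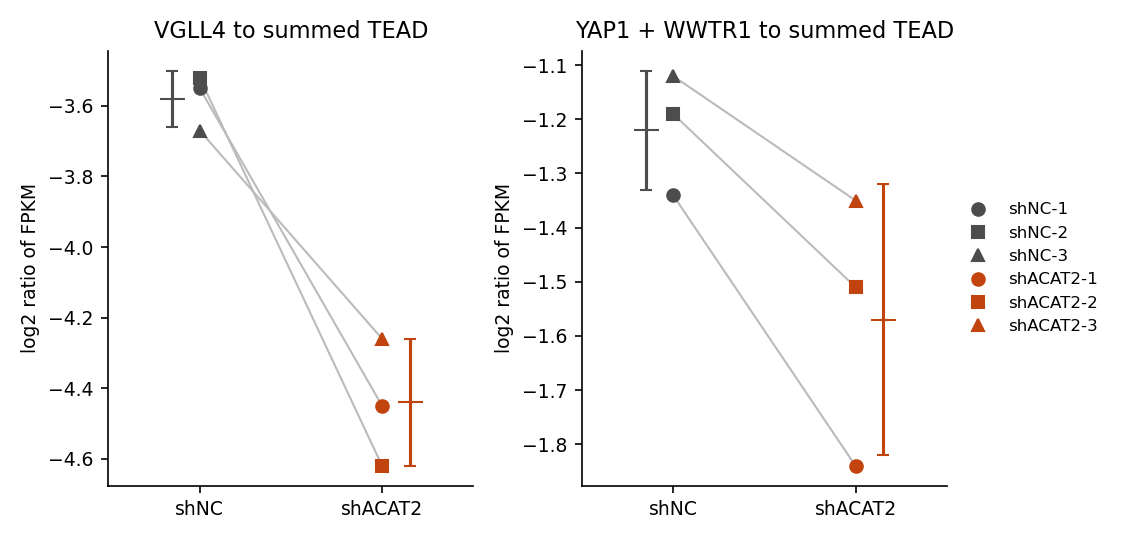
Each panel gives the log2 ratio of FPKM per library, with grey lines joining libraries of the same number and bars for mean ± SD (n = 3). VGLL4 against summed TEAD (left) falls between -3.67 and -3.52 in shNC and between -4.62 and -4.26 in shACAT2, and the coactivators against summed TEAD (right) fall between -1.34 and -1.12 and between -1.84 and -1.35.

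Around these 8 genes, the upstream Hippo genes and the transcriptional targets of YAP/TAZ were counted on lists. Of 15 core genes (the kinases STK3, STK4, LATS1 and LATS2 with their scaffolds and activators), 3 rose, 0 fell and 12 did not pass, where 5.10% of all genes tested passed in either direction. LATS2, the kinase that phosphorylates YAP1 and TAZ, was at 4.40, 4.28 and 3.78 FPKM in shNC and at 7.01, 8.41 and 7.84 FPKM in shACAT2 (log2 fold change 0.76, SE 0.10, limma adjusted p = 0.0119). WWC3, of the KIBRA family of LATS activators, went from 5.52 ± 0.469 to 8.59 ± 0.337 FPKM (SD, n = 3, limma adjusted p = 0.0235), and SAV1, the scaffold of the STK kinases, from 11.1 ± 0.353 to 15.5 ± 0.700 FPKM (limma adjusted p = 0.0375). In 5 of the 15 the groups did not overlap, 4 higher and 1 lower in shACAT2, which is near the 30.7% of all genes tested. The median log2 fold change of the list was 0.02, beside 0.016 for all genes. No core gene passed when shACAT2-2 or any single shNC library was left out, or when the mean of shNC-2 and shNC-3 stood for both. Over the whole table, 63 to 135 genes passed in these same fits, against 706 in the main fit.

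The cytoplasmic regulators bind YAP1 and TAZ or their kinases outside the nucleus. Of 18 listed, 17 were tested, of which 2 rose, 0 fell and 15 did not pass, where 5.10% of all genes tested passed. The median log2 fold change of the list was 0.05, beside 0.016 for all genes. AMOTL2, an angiomotin that retains YAP1 at cell junctions, was at 6.25, 6.01 and 6.09 FPKM in shNC and at 18.2, 16 and 15.1 FPKM in shACAT2 (log2 fold change 1.29, SE 0.10, limma adjusted p = 0.00347). AJUBA, a LIM protein that inhibits LATS, was at 13.4, 12.1 and 11.6 FPKM in shNC and at 30.5, 25.1 and 23.3 FPKM in shACAT2 (log2 fold change 1.03, SE 0.13, limma adjusted p = 0.0106). The groups were far apart in both. In 11 of the 17 the groups did not overlap, 7 higher and 4 lower, against 30.7% of all genes tested. Without shACAT2-2, shNC-2 or shNC-3, or with the last pair averaged, 1 of the 17 passed. Over the whole table, 63 to 129 genes passed in these same fits, against 706 in the main fit.

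Of 22 transcriptional targets of YAP/TAZ, 19 were tested, of which 9 rose, 0 fell and 10 did not pass, where 5.10% of all genes tested passed in either direction. CYR61, which encodes the matricellular protein CCN1, was at 13.9, 12.1 and 13.2 FPKM in shNC and at 41.5, 32.0 and 27.1 FPKM in shACAT2 (log2 fold change 1.28, SE 0.16, limma adjusted p = 0.0107). CTGF, which encodes its relative CCN2, was at 3.13, 1.5 and 2.08 FPKM in shNC and at 8.79, 6.66 and 7.21 FPKM in shACAT2 (log2 fold change 1.42, SE 0.19, limma adjusted p = 0.0133). In both genes every shACAT2 library lay above every shNC library. TGFB2, a ligand of the TGF-beta family, rose from 1.82 ± 0.186 to 4.08 ± 0.412 FPKM (SD, n = 3, limma adjusted p = 0.0106) and MYOF, a ferlin of membrane repair, from 0.773 ± 0.151 to 2.29 ± 0.232 FPKM (limma adjusted p = 0.0149). MYOF and ANKRD1 (0.208 ± 0.0542 FPKM in shNC and 1.07 ± 0.125 FPKM in shACAT2) reached the filter of 1 FPKM only in shACAT2. Such genes could be counted only as higher, and both are in the counts and the median of this list. AMOTL2 and LATS2 were also among the 9, and as they stand on both a regulator list and the target list they are counted in each.

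The median log2 fold change of the 19 targets was 0.56, beside 0.016 for all genes and 0.01 for the YAP, TAZ, TEAD and VGLL members. The groups did not overlap in 13 of 19, all higher in shACAT2, against 30.7% of all genes tested in either direction. With the replicate number as a block 10 of 19 passed, against 12.5% of all genes. The count of targets passing was 1 without shACAT2-2 or shNC-3, 1 when the mean of shNC-2 and shNC-3 stood for both and 2 without shNC-1 or shNC-2, while AMOTL2 had a limma adjusted p of at most 0.0332 in each fit that left out 1 library. Over the whole table, 63 to 135 genes passed in the fits with 1 or 2 targets passing, against 706 in the main fit. The summed fibroblast, mesenchymal and epithelial markers were also higher in the same 3 libraries, and their part in the target values was not tested.

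**Figure D5:**
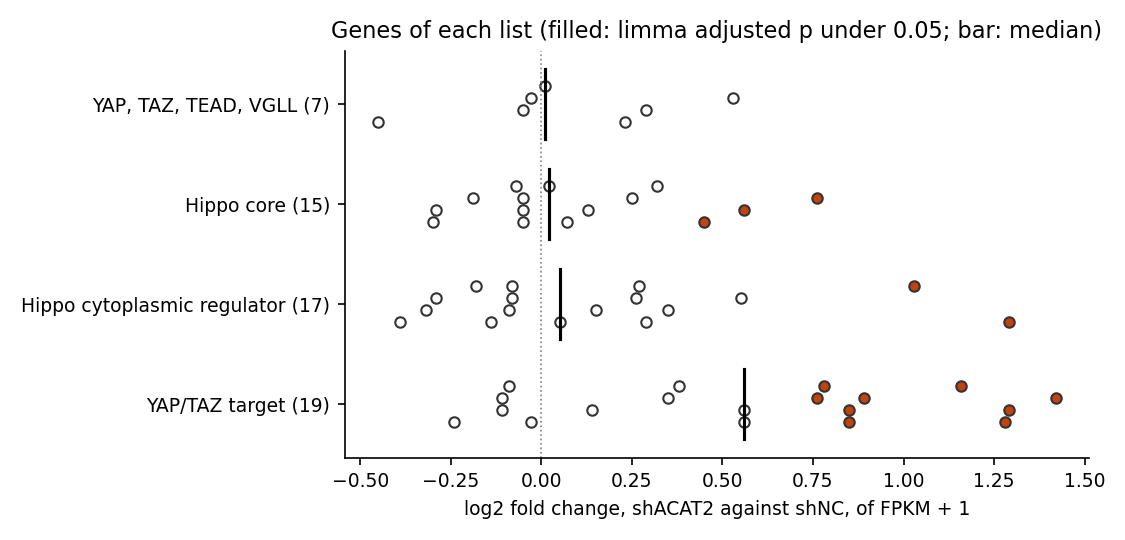
Each point is the log2 fold change of FPKM + 1 of 1 gene, shACAT2 against shNC, filled where the limma adjusted p was under 0.05, with a bar at the median of each list and the number of genes tested in brackets. The medians are 0.01, 0.02 and 0.05 for the members, the core genes and the cytoplasmic regulators, and 0.56 for the targets.

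The genes most like TEAD1 and YAP1 across the 6 libraries were found by the root-mean-square difference in log2(FPKM + 1) deviation from each gene's own mean, over 13831 other genes. For TEAD1, whose own deviation was 0.410, they were AC018690.1 (0.0976), BACH1 (0.0977), a transcriptional repressor, and KIF5B (0.0977), a kinesin heavy chain. KIF5B was at 42.8, 58.2 and 58.4 FPKM in shNC and at 50.2, 81.6 and 78.6 FPKM in shACAT2, and it shares with TEAD1 a low value in both libraries numbered 1. For YAP1, whose own deviation was 0.0952, they were DCAF6 (0.0154), ELF2 (0.0240) and ZNF286A (0.0241). DCAF6 was at 8.92, 9.84 and 9.80 FPKM in shNC and at 7.88, 9.90 and 9.31 FPKM in shACAT2, with shACAT2-1 lowest as in YAP1. All points of such a comparison share the same 6 libraries and their depths.

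The precision of the levels also rests on what lies on the other strand. Exons of CD37, a tetraspanin listed at 3.76 to 3.93 FPKM in shNC and at 1.58 to 2.27 FPKM in shACAT2, covered 319 bases (10.7%) of the TEAD2 exons from the opposite strand. WWTR1-AS1 overlapped 795 bases (9.45%) of WWTR1 at 0.0237 to 0.154 FPKM, and AP000942.2 overlapped 628 bases (9.97%) of YAP1 and was listed at 0 in all libraries. In the sense direction, 0.451% of the 50-base words of YAP1 occurred in the pseudogene YAP1P1. TEAD1, TEAD3, TEAD4 and VGLL3 shared no exon base with another annotated gene. Fragment numbers of the 7 expressed members ran from 395 to 4018 per library, and such counts carry counting error only, while the replicate SD includes all differences between these libraries.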

How the data were processed

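Total RNA of 6 libraries of HGC-27 cells was sequenced, and the titles in the labels gave each library its group and number. The authors deposited 1 table of FPKM per gene and library. The submitters' processing notes name HISAT2 2.0.5, featureCounts 1.5.0-p3, DESeq2 1.20.0 and hg38, without roles. The strand setting is not given in the sources used here. All FPKM values corresponded to whole fragments (tolerance 0.05 fragments), from which depth was recovered. The 8 members' coordinates in the table equalled those of GENCODE release 29.

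Genes whose shNC or shACAT2 mean reached 1 FPKM were tested on log2(FPKM + 1), which understates changes of low genes, by limma 3.58.1 (R 4.3.3) with a trend and Benjamini-Hochberg adjustment over all genes tested, and called at an adjusted p under 0.05. The script was tested on simulated data. Shares, sums and ratios were tested by 2-sided exact permutation in scipy 1.17.1. Sequences were compared with Biopython 1.88. Alternatives were other scalings, filters, pseudocount (0.1), a replicate block, limma-voom, averaging of shNC-2 and shNC-3, and leaving out each library.

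The members and lists were chosen with earlier results of these data known. Named genes were all members, VGLL1, VGLL2, ACAT2, SETD7, at most 6 genes per list called with the smallest p, the 3 genes most like TEAD1 and YAP1, and overlapping genes. ANKRD1 was named besides, for its place at the filter. Correlations of deviations from the group means were 0.445, 0.126 and 0.171 for libraries of the same number. They were 0.198 for shNC-2 with shACAT2-3 and 0.141 for shNC-3 with shACAT2-2. Only the pair numbered 1 thus stood out, and the values do not tell how libraries 2 and 3 pair. The pairing rests on this check of the same data, not on a label, so the block is not a known paired design. The series describes 3 biological replicates per group. The labels name no separate cultures, so p-values measure the spread between these libraries, which may be technical.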

Additional observations from a re-analysis of the deposited data

How the results depend on the processing

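SETD7, TEAD3 and TEAD4 kept their direction and side of the threshold in all alternatives run for them. The TEAD1, TEAD2 and YAP1 shares, the summed TEAD level and both ratios kept their direction, in a design whose p cannot pass the threshold. In SETD7, the TEAD2 share, the summed TEAD level and both ratios the groups did not overlap in the deposited FPKM. Leaving out or averaging libraries could therefore not change their direction. The values that changed sign were all small. YAP1 ranged from -0.10 to 0.032 when each library was left out in turn, with 0.032 without shACAT2-1. WWTR1 ranged from -0.046 to 0.050, was -0.032 with library-size scaling and -0.041 with limma-voom, and was -0.023 without shACAT2-3. TEAD2 ranged from -0.21 to 0.070, being 0.040 without shACAT2-2 and 0.012 without shNC-1, and was 0.0087 with upper-quartile scaling. The share of TEAD3 ranged from -1.59 to 0.127 percentage points and that of TEAD4 from -3.16 to 2.05, with 1.25 without shNC-1 and 0.00856 without shACAT2-2. Summed YAP1 and WWTR1 ranged from -1.55 to 0.626 FPKM and was 0.120 with upper-quartile scaling. The cause of these changes was not tested.

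TEAD1 was at 0.53 (limma adjusted p = 0.0413) with the replicate block and ranged from 0.38 to 0.80 over libraries left out. VGLL4 was at -0.49 with library-size scaling (limma adjusted p = 0.0324), -0.60 with limma-voom (0.0220) and -0.45 with the replicate block (0.0424), and ranged from -0.50 to -0.39. With no filter its limma adjusted p was 0.172, and 0.170 where shNC-2 and shNC-3 were used as their mean. ACAT2 was at -1.01 without shNC-3 (limma adjusted p = 0.0512) and ranged from -1.07 to -0.94.

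The number of genes called over the whole table was 706. It was 1165 with limma-voom, 160 with no filter, 1727 with the replicate block and 83 where shNC-2 and shNC-3 were used as their mean, and it ranged from 63 (without shNC-3) to 862 (without shACAT2-1), with fewer samples in the last 2 kinds of fit and more genes tested in the fit with no filter. Members called were 1 with library-size scaling (865 genes over the whole table), 1 with limma-voom and 2 with the replicate block, and 0 to 2 over libraries left out. Core genes called were 0 with no filter, 0 with that mean and 0 to 3 over libraries left out. Cytoplasmic regulators called were 1, 1 and 1 to 3, and targets called were 1, 1 and 1 to 9 in the same settings. The replicate block changed no other call among the members. In the shares, sums and ratios the block leaves the mean difference as it is, and 3 pairs cannot give an exact p under 0.25. VGLL3 was too low for a result in any setting. The median log2 fold change of all genes was 0.0157 as deposited, 0.0556 with upper-quartile scaling and -0.029 with library-size scaling.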
